A study of Homo sapiens with 18 samples.

Results

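The small-subunit processome and the factors that finish the 40S ribosomal subunit were followed as a set of 49 genes, out of 41285 in the count table. The genes were listed by name, with earlier results of these data known: subunits of the processome, box C/D snoRNP proteins and 40S maturation factors. All 49 were found, each as a single protein-coding row, and all 49 passed the filter on low counts. RNA was measured by polyA-selected, stranded mRNA sequencing of K562, a chronic myeloid leukaemia cell line, in 18 libraries. There were 9 groups of 2 libraries each. The KRAB-D9 line carries the repressor fusion dCas9-KRAB, whose expression doxycycline induces, and was given doxycycline with interferon alpha (IFN), IFN alone, doxycycline alone or no treatment. The VPR-D9 line carries the activator fusion dCas9-VPR, also induced by doxycycline, and had 2 doxycycline groups with the codes D2000 and D6 beside untreated cells. Parental K562 cells were given IFN or left untreated, and parental cells with doxycycline were not analysed here, so that doxycycline, the dCas9 fusion and the change in SAMD9 cannot be told apart. Doxycycline was given at 2 µg/mL in D2000 and in both doxycycline groups of KRAB-D9, and the dose of D6 was not given. IFN was given at 1000 U/mL and left on for 24 hours. Cells of KRAB-D9 that got both had doxycycline for 24 hours before IFN and during it. The meaning of D2000 and D6, whether their doses or times differ, how long doxycycline was given without IFN, and whether a line is 1 clone could not be learned from the labels. The labels do not tell separate cultures from repeat libraries, and a p-value covers no more than the spread seen between libraries.

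As background, the processome assembles on the nascent ribosomal RNA precursor in the nucleolus. The UTP-A complex binds the 5′ external transcribed spacer first, UTP-B and the U3 snoRNP join it, and U3 pairs with the precursor and so guides folding and cleavage of the 18S part. The MPP10 and UTP-C complexes, GTPases, helicases and modifying enzymes act on the same particle, which then leaves the nucleolus as a pre-40S subunit that late factors complete in the cytoplasm. Ribosome production of this kind is high in dividing cells such as K562.

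The study's series concerns SAMD9, a cytoplasmic RNA-binding protein that restrains growth and is induced by interferon, and its mRNA was taken as the check of the labels. Levels are given as CPM, counts scaled to the library size and by TMM factors. SAMD9 averaged 961 CPM in D2000, 948 CPM in D6 and 60.6 CPM in untreated VPR-D9 cells. It averaged 0.797 CPM with doxycycline and IFN, 54.2 CPM with IFN, 0.0585 CPM with doxycycline and 0.557 CPM without treatment in KRAB-D9 cells. In parental cells it averaged 161 CPM with IFN and 9.18 CPM without. Libraries held 32694200 to 63037568 counts, and the 10 K562 markers were above 1 CPM in every group. The 2 libraries of KRAB-D9 with IFN stood apart from each other: their variance was 19.6 times counting noise, against 4.71 to 6.98 times in the other groups. Results that use this group are given with and without each of its libraries where the count moved.

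The 49 mRNAs were well measured. Their mean level over the 18 libraries ranged from 27.8 CPM for PWP2 to 592 CPM for FBL (median 112 CPM), and the lowest count of any factor in any library was 863. Divided by gene length, FBL, the methyltransferase of box C/D snoRNPs, was highest at 277 CPM per kb and PWP2, a UTP-B subunit, lowest at 4.06 CPM per kb. In sum the factors took 0.388 to 0.719% of all counts in a library. Their summed level was 3295 ± 57.0 CPM in D2000 and 6075 ± 120.2 CPM in D6, against 6404 ± 34.4 CPM in untreated VPR-D9 cells (SD, n = 2 each). In KRAB-D9 cells it was 5570 ± 100.2 CPM with doxycycline and IFN and 7333 ± 1.3 CPM with IFN, and 5459 ± 6.46 CPM with doxycycline and 7286 ± 3.85 CPM without. Parental cells had 7299 ± 149.9 CPM with IFN and 7506 ± 16.5 CPM without. The sum was thus lowest in D2000, low in both doxycycline groups of KRAB-D9, and near the untreated level with IFN alone.

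**Figure D1:**
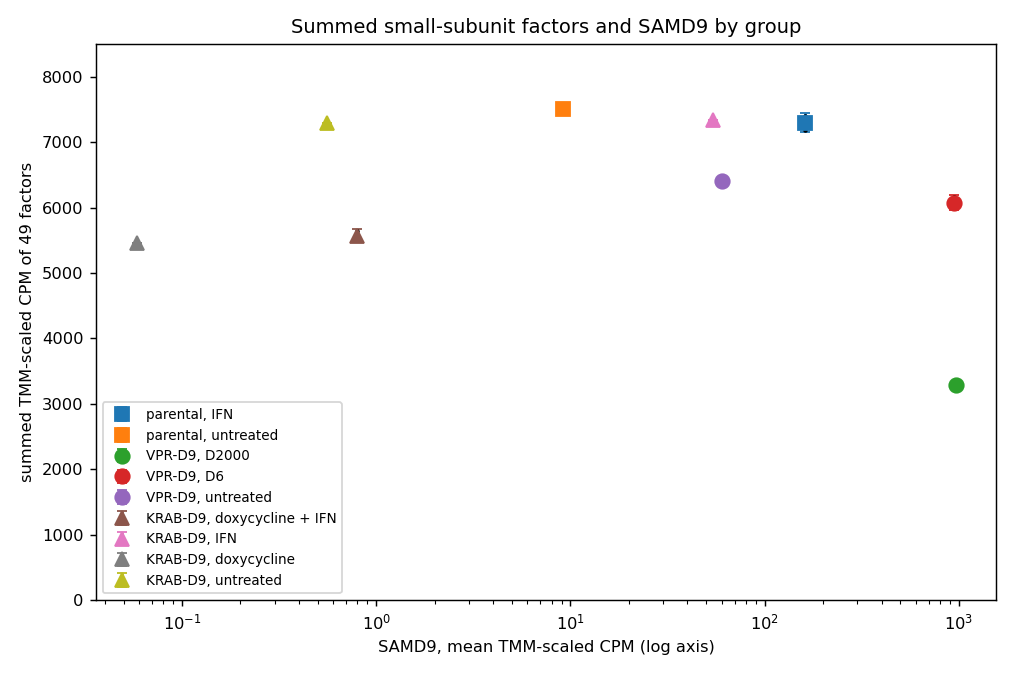
Summed level of the 49 factors (TMM-scaled CPM, linear axis from 0) against mean SAMD9 (TMM-scaled CPM, log axis) in the 9 groups. Points are group means and bars the SD of 2 libraries. D2000 (961 CPM SAMD9) and both doxycycline groups of KRAB-D9 (under 1 CPM SAMD9) lie below their own line's untreated cells, while D6 lies near them at 948 CPM SAMD9.

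**Figure D2:**
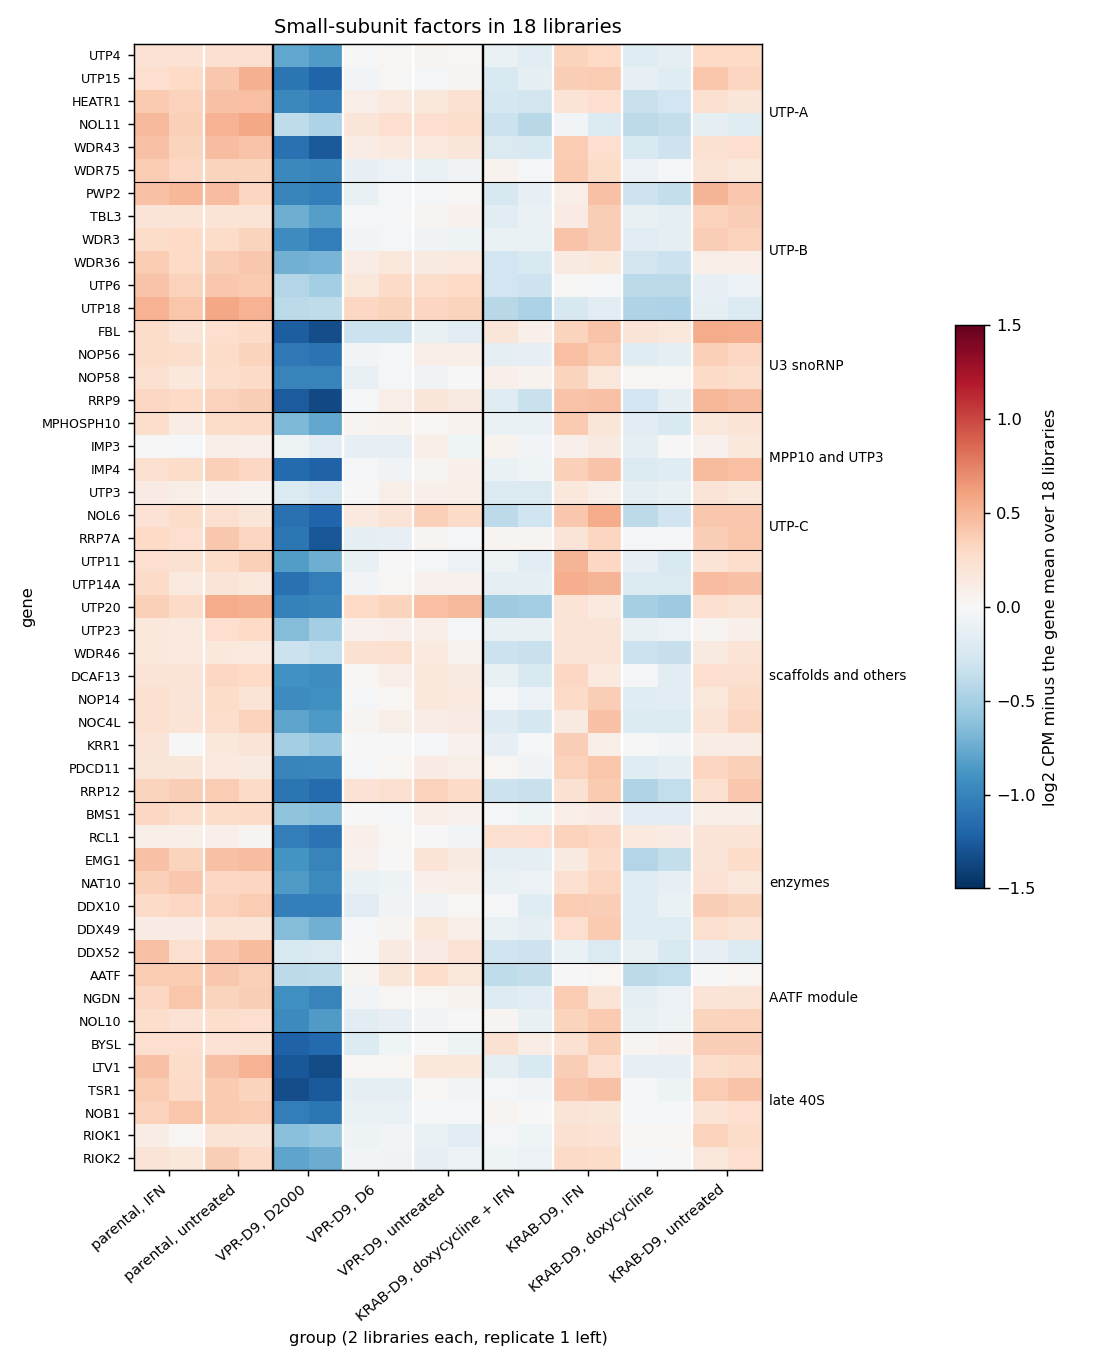
Level of each factor in each library, as log2 CPM minus the gene's mean over the 18 libraries, with genes in rows by role and libraries in columns by group (replicate 1 left). The D2000 columns are low in nearly every row, the doxycycline columns of KRAB-D9 are lower than their controls in most rows, and UTP18, NOL11 and DDX52 are below their own mean in all 8 KRAB-D9 columns.

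In KRAB-D9 cells doxycycline lowered 44 of the 49 factors and raised 0 (44 at an adjusted p under 0.05, edgeR quasi-likelihood test with Benjamini-Hochberg adjustment over 22143 genes, n = 2 and 2). Among all genes tested 12.7% were called lower and 12% higher. Among the 6700 genes at or above the lowest mean level of the factors, 30.2% were called lower. The factors' log2 fold changes ran from -0.79 to -0.01 with a median of -0.40, beside a median of 0.02 over all genes tested. The 2 doxycycline libraries were below both untreated libraries for 48 factors, and the groups overlapped for 1. The share of all genes separated in this way was not counted. In bulk RNA, fewer cells of a kind and less RNA per cell cannot be told apart. With IFN present, doxycycline lowered 45 of 49 and raised 0, against 11.9% of all genes called lower and 10.4% called higher (28.7% lower among the 6700), with a median of -0.39. The contrasts with and without IFN share no library. With library totals in place of TMM scaling 44 were lower in each, and the share of higher calls among all genes called with IFN present moved to 61.4%, against 46.7% with TMM.

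All 6 UTP-A proteins fell with doxycycline in KRAB-D9, both without IFN (median -0.48) and with it (median -0.47). HEATR1, the large repeat protein that corresponds to yeast Utp10, had 197 and 203 CPM in doxycycline-treated KRAB-D9 cells, against 294 and 283 CPM in untreated ones. The libraries did not overlap, and the change was -0.53 ± 0.04 on the log2 scale (edgeR, Benjamini-Hochberg adjusted p = 1.62e-13, n = 2 and 2). With IFN present it was -0.50 ± 0.04. UTP15 had 49.9 and 48.1 CPM with doxycycline, against 72.6 and 68.3 CPM without (-0.52 ± 0.06). The rest, UTP4, WDR43, WDR75 and NOL11, fell by 0.22 to 0.51, NOL11 least. All 6 UTP-B proteins fell as well (median -0.44, and -0.40 with IFN). PWP2, a WD-repeat scaffold, had 21.4 and 20.8 CPM with doxycycline, against 37.9 and 35.1 CPM without, the largest fall of the 49 without IFN (-0.79 ± 0.09, edgeR Benjamini-Hochberg adjusted p = 2.71e-09). With IFN its fall was -0.47 ± 0.09, and the IFN libraries differed from each other at 28.4 and 36.1 CPM. WDR3 had 136 and 137 CPM with doxycycline and 195 and 193 CPM without (-0.51 ± 0.04, and -0.50 ± 0.04 with IFN). TBL3, WDR36, UTP6 and UTP18 fell by 0.29 to 0.48.

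The 4 U3 snoRNP proteins in the set fell in both contrasts. RRP9, the protein that marks U3 among box C/D snoRNPs, had 57.6 and 63.6 CPM in doxycycline-treated cells, against 99.5 and 96.8 CPM in untreated cells (-0.69 ± 0.06, edgeR Benjamini-Hochberg adjusted p = 2.94e-12). Its fall with IFN present was -0.69 ± 0.06. NOP56, a core protein of every box C/D snoRNP, had 259 and 268 CPM with doxycycline, against 376 and 365 CPM without (-0.49 ± 0.04). FBL, the most abundant of the 49, had 643 and 633 CPM with doxycycline, against 828 and 817 CPM without (-0.37 ± 0.04, and -0.25 ± 0.04 with IFN). NOP58, the partner of NOP56, fell by 0.25. FBL, NOP56 and NOP58 serve other box C/D snoRNAs too, and the differences between these changes were not tested. In the MPP10 group IMP4 fell most, with 108 and 109.6 CPM under doxycycline, against 173 and 170.1 CPM without (-0.66 ± 0.04, edgeR Benjamini-Hochberg adjusted p = 3.79e-15). MPHOSPH10, the human MPP10, had 121 and 116 CPM with doxycycline, against 152 and 157 CPM in untreated cells (-0.38 ± 0.05, and -0.39 ± 0.05 with IFN). UTP3 fell by 0.30. IMP3, which binds U3 beside IMP4, had 36.2 and 40.4 CPM with doxycycline and 42.0 and 44.9 CPM without (-0.18 ± 0.07, edgeR Benjamini-Hochberg adjusted p = 0.0523), and was not called.

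NOL6 and RRP7A, the UTP-C proteins in the set, both fell. NOL6 had 91.2 and 97.6 CPM with doxycycline, against 159 and 159 CPM without (-0.75 ± 0.05, edgeR Benjamini-Hochberg adjusted p = 8.21e-15), and with IFN it showed the largest fall of the 49 (-0.83 ± 0.05). RRP7A had 62.5 and 63.3 CPM with doxycycline, against 82.9 and 85.1 CPM without (-0.42 ± 0.06). Its row is uncertain, since the pseudogene RRP7BP held 38.6% as many counts. Among the 11 scaffolds and other subunits 9 fell without IFN and 11 with it. UTP20, a very large repeat protein of the processome, had 87.9 and 85.0 CPM with doxycycline, against 147 and 144 CPM without (-0.75 ± 0.04, and -0.70 ± 0.04 with IFN). RRP12, a repeat protein of nucleolar and export stages, had 74.9 and 79.5 CPM with doxycycline, against 121 and 136 CPM without (-0.74 ± 0.06). UTP14A, whose yeast counterpart activates a processome helicase, fell by 0.66 in both contrasts. PDCD11, the human counterpart of yeast Rrp5, changed by -0.50 ± 0.04, and by -0.39 ± 0.04 with IFN. UTP11, DCAF13, NOP14, NOC4L and WDR46 changed by -0.50 to -0.33. KRR1 (-0.13 ± 0.07) and UTP23 (-0.16 ± 0.07) were not called without IFN and were called lower with it (KRR1 -0.30 ± 0.07, UTP23 -0.30 ± 0.07). The span of UTP23 overlaps EIF3H and RAD21, whose counts are 865% and 692% of its own.

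Of the 7 enzymes and their partners 5 fell in each contrast. EMG1, the methyltransferase of an 18S pseudouridine, had 31.8 and 33.6 CPM with doxycycline, against 49.3 and 52.3 CPM without (-0.63 ± 0.07, edgeR Benjamini-Hochberg adjusted p = 8.06e-10). DDX10, a DEAD-box helicase, had 71.9 and 75.9 CPM with doxycycline, against 105 and 103 CPM without (-0.50 ± 0.05). NAT10, the RNA cytidine acetyltransferase, fell by 0.35 and the helicase DDX49 by 0.40. The GTPase BMS1 changed by -0.25 ± 0.04, and by -0.15 ± 0.04 with IFN. RCL1, the partner of BMS1, had 66.5 and 65.1 CPM with doxycycline and 68.6 and 69.3 CPM without (-0.07 ± 0.05), and DDX52 had 61.8 and 56.8 CPM with doxycycline and 61.1 and 57.9 CPM without (-0.01 ± 0.06). Neither was called in either contrast. The AATF, NGDN and NOL10 module fell in full, NGDN by 0.32. NOL10 had 72.9 and 74.7 CPM with doxycycline, against 99.2 and 99.98 CPM without (-0.43 ± 0.05), and AATF had 115 and 117 CPM with doxycycline, against 151 and 154 CPM without (-0.39 ± 0.05, and -0.38 ± 0.05 with IFN). The 6 late factors fell least as a group (median -0.30). TSR1, a GTPase-like pre-40S protein, had 145 and 141 CPM with doxycycline, against 193 and 199 CPM without (-0.45 ± 0.04, and -0.45 ± 0.04 with IFN), and LTV1, a pre-40S export and release factor, had 84.7 and 84.3 CPM with doxycycline, against 111 and 112 CPM without (-0.40 ± 0.05). NOB1, the nuclease that makes the mature 3′ end of 18S rRNA, fell by 0.24, and the kinases RIOK1 and RIOK2 by 0.29 and 0.22. BYSL fell by 0.31 without IFN and was not called with it (-0.13 ± 0.05, edgeR Benjamini-Hochberg adjusted p = 0.0724).

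The size of the doxycycline effect in KRAB-D9 was not called different with and without IFN for any factor (0 of 49, edgeR Benjamini-Hochberg adjusted p, against 0.158% of all genes in either direction). At an unadjusted p under 0.05 there were 5, DESeq2 also called 0, and the differences ran from -0.17 (KRR1) to 0.32 (PWP2) with a median standard error of 0.07. The share of all genes at that unadjusted cut was not counted. Without replicate 2 of the IFN group 5 were called, beside 3.21% of all genes, and 0 without replicate 1. Across the 49 factors the changes in the 2 contrasts, which share no library, had Pearson's r = 0.83 and Spearman's rho = 0.84 (n = 49 genes, which are not independent; 0.83 over 9204 genes of at least 10 CPM). In both contrasts 43 factors were lower, of 44 without IFN and 45 with it. With nearly all 49 lower in each, most of this overlap was fixed in advance, and no overlap over all genes was counted. With both treatments set against none, 45 factors were lower and 0 higher (12.5% of all genes lower, and 12.5% higher), from -0.75 for NOL6 to 0.04 for RCL1. UTP20 (-0.75 ± 0.04), RRP9 (-0.73 ± 0.06), RRP12 (-0.65 ± 0.05) and PWP2 (-0.64 ± 0.09) followed NOL6. This contrast uses the untreated libraries of the first contrast again, and with library totals 60.6% of all its calls were higher, against 49.9% with TMM.

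**Figure D3:**
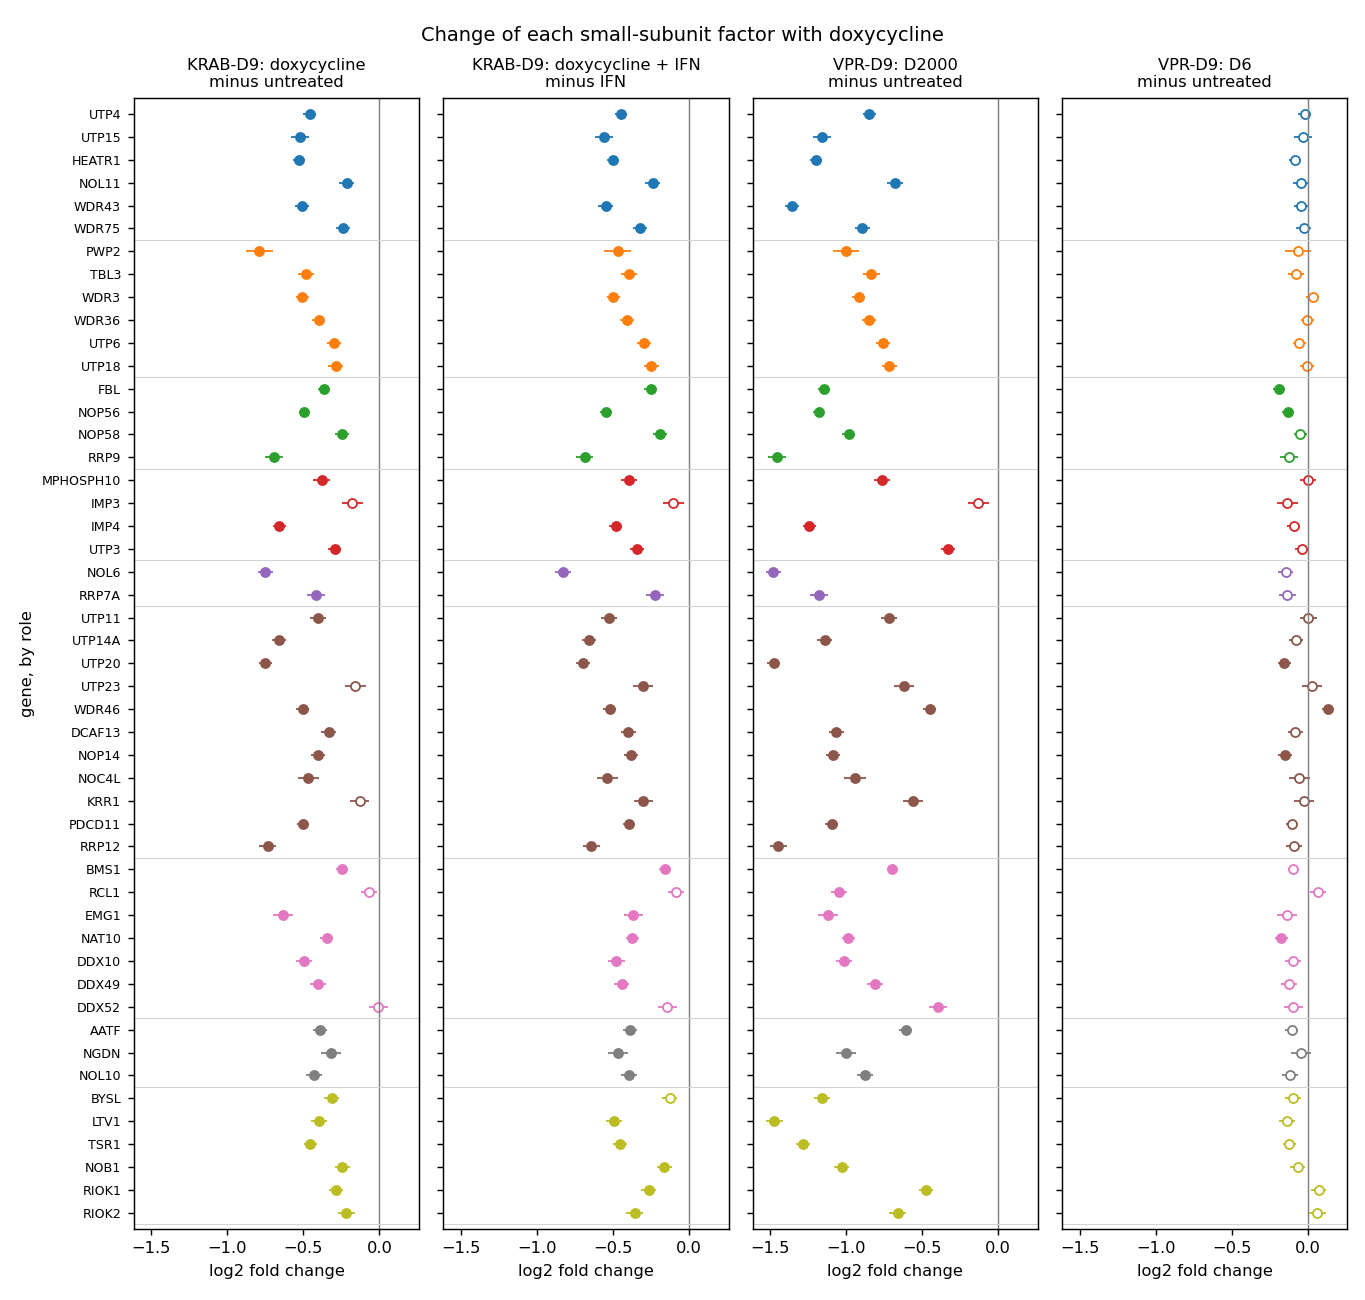
Log2 fold change of each factor with doxycycline (point) ± standard error (bar) in 4 contrasts, by role. Filled points passed an adjusted p of 0.05 and open points did not. The factors lie left of 0 in KRAB-D9 (44 called lower without IFN, 45 with it), farther left in D2000 (48 called lower), and close to 0 in D6 (5 lower, 1 higher).

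In VPR-D9 cells the D2000 group had the most negative median of the 15 contrasts in these genes. Of the 49 factors 48 were lower than in untreated VPR-D9 cells and 0 higher, against 24.2% and 21.9% of all genes (58.5% lower among the 6700 genes at or above the factors' lowest mean). Their median log2 fold change was -0.99, beside 0.06 over all genes tested, and 23 factors fell at least 2-fold. The share of all genes that fell at least 2-fold was not counted. Both D2000 libraries were below both untreated libraries for all 49 factors, with no count of such separation over all genes. With library totals in place of TMM scaling the median of all genes moved by 0.23 and that of the factors to -0.76, with 48 still lower and IMP3 at 0.10. The share of higher calls among all genes called was then 68.6%, against 47.6% with TMM. NOL6 had 55.2 and 52.3 CPM in D2000, against 153 and 146 CPM in untreated VPR-D9 cells (-1.48 ± 0.05, 2.79-fold lower, edgeR, Benjamini-Hochberg adjusted p = 8.84e-25, n = 2 and 2). UTP20 had 61.4 and 62.5 CPM in D2000, against 171 and 174 CPM untreated (-1.48 ± 0.04). LTV1 had 38.1 and 36.2 CPM in D2000, against 104 and 103 CPM untreated (-1.47 ± 0.05). These are a UTP-C subunit, a scaffold and a late factor, so large falls were not limited to 1 stage. RRP9 had 29.7 and 27.6 CPM in D2000, against 80.0 and 77.4 CPM untreated (-1.46 ± 0.06), and RRP12 had 47.9 and 46.0 CPM in D2000, against 130.2 and 125 CPM untreated (-1.45 ± 0.06).

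By role, the UTP-C proteins (median -1.33) and the U3 snoRNP proteins (median -1.16) had the most negative medians in D2000. FBL had 238 and 222 CPM in D2000, against 519 and 501 CPM untreated (-1.15 ± 0.04), and NOP56 had 140.2 and 136 CPM in D2000, against 315 and 312 CPM untreated (-1.18 ± 0.04). The late factors followed (-1.09), with TSR1 at 58.7 and 62.1 CPM in D2000, against 151 and 144 CPM untreated (-1.28 ± 0.04), then the scaffolds (-1.06) and UTP-A (-1.03). In UTP-A, WDR43 fell by 1.36 and HEATR1 had 128 and 122 CPM in D2000, against 281 and 293 CPM untreated (-1.20 ± 0.04). Smaller medians came from the enzymes (-0.99), the AATF module (-0.88), UTP-B (-0.84) and the MPP10 group (-0.55). PDCD11 had 107 and 108 CPM in D2000, against 233 and 227 CPM untreated (-1.10 ± 0.04). WDR3 had 78.9 and 74.1 CPM in D2000, against 146 and 143 CPM untreated (-0.92 ± 0.04). RCL1, not called in KRAB-D9, had 29.2 and 27.8 CPM in D2000, against 59.9 and 58.1 CPM untreated (-1.05 ± 0.05, edgeR Benjamini-Hochberg adjusted p = 2.08e-19). The GTPase BMS1 had 123 and 121 CPM in D2000, against 200.5 and 195 CPM untreated (-0.70 ± 0.04), and its row is uncertain because 16 pseudogene rows held 11.5% as many counts. MPHOSPH10 had 85.5 and 79.3 CPM in D2000, against 139 and 142 CPM untreated (-0.77 ± 0.05), and AATF had 115 and 116 CPM in D2000, against 181 and 170.2 CPM untreated (-0.61 ± 0.04). The smallest falls called were those of UTP3 (-0.33 ± 0.04), DDX52 (-0.40 ± 0.06), WDR46 (-0.45 ± 0.04) and RIOK1 (-0.48 ± 0.05). IMP3 was the factor not called, with 38.1 and 36.1 CPM in D2000, against 42.9 and 38.3 CPM untreated (-0.13 ± 0.07, edgeR Benjamini-Hochberg adjusted p = 0.118). Its span overlaps SNX33, whose row held 88.9% as many counts, so its level is uncertain.

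Other measures moved with D2000. The summed level of the 10 K562 markers was 726 to 730 CPM in D2000, against 1549 to 1554 CPM in untreated VPR-D9 cells, all 10 above 1 CPM in each. TFRC was the largest part of this sum (221 CPM in D2000, against 655 CPM untreated). All 10 had a lower mean in D2000, TAL1 hardly so (167 CPM, against 169 CPM untreated). The summed level of 5 fibroblast markers was 32.6 to 33.4 CPM, against 4.48 to 5.30 CPM untreated, and 32.8 to 32.9 CPM in D6. COL1A1 made up most of it in D2000 (30.5 CPM, against 3.02 CPM untreated), while PDGFRB and COL1A2 were below 1 CPM in all VPR-D9 groups. In KRAB-D9 this sum was 12.7 to 14.5 CPM with doxycycline, against 30.1 to 35.5 CPM without. There another gene, COL1A2, made up most of it (12.2 CPM with doxycycline, against 29.7 CPM without). COL1A1 had 1.12 CPM with doxycycline and 2.67 CPM without in KRAB-D9. The sum of 3 epithelial markers, led by EPCAM, was 30.4 to 30.7 CPM in D2000, against 64.4 to 69.6 CPM untreated, with 1 of the 3 at 0 counts in both. In KRAB-D9 it was 69.7 to 71.5 CPM with doxycycline, against 80.0 to 84.2 CPM without. The sum of 4 monocyte markers was 50.2 to 51.3 CPM in D2000, against 39.7 CPM in both untreated libraries. LYZ made up nearly all of it (50.4 CPM in D2000, against 39.0 CPM untreated), with CD14, CD68 and CSF1R below 1 CPM in every group. In KRAB-D9 the monocyte sum was 14.4 to 15.1 CPM with doxycycline, against 26.3 to 27.7 CPM without. The 4 T cell and 3 endothelial markers summed to under 6 CPM in each library of D2000 and of untreated VPR-D9 cells. The TMM factors of D2000 were 1.17 and 1.19, against 1.01 and 1.01. In KRAB-D9 cells the sum of the K562 markers went the other way, 3694 to 3755 CPM with doxycycline and 3248 to 3280 CPM without. HBZ did not follow that sum (572 CPM with doxycycline, against 626 CPM without), while the other K562 markers had higher means with doxycycline. The part of these in the factors' fall was not tested.

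D6 differed little from untreated VPR-D9 cells. In D6 5 factors were lower and 1 higher, against 3.41% and 3.19% of all genes (9.81% lower among the 6700), and the median was -0.08. The share of factors lower was near that of the 6700, and the share higher was no larger than among all genes. FBL had 449 and 447 CPM in D6, against 519 and 501 CPM in untreated cells (-0.19 ± 0.04, edgeR Benjamini-Hochberg adjusted p = 0.00192), and NAT10 had 169 and 171 CPM in D6, against 190.2 and 193 CPM untreated (-0.17 ± 0.04, edgeR Benjamini-Hochberg adjusted p = 0.00738). UTP20 (-0.15 ± 0.04), NOP14 (-0.15 ± 0.05) and NOP56 (-0.13 ± 0.04) were also lower, and WDR46, a WD-repeat subunit, was higher (183 and 186 CPM in D6, against 174 and 162 CPM untreated, 0.13 ± 0.04). The count was 1 to 3 when any single library of the contrast was left out, and 3 with library totals, under which 69% of all calls were higher, against 48.4% with TMM. The libraries of D6 lay below both untreated libraries for 27 factors and above them for 5, and overlapped with them for 17. Here too no share over all genes was counted. The most abundant factors of the other roles were not called in D6 and lay between -0.14 ± 0.05 (NOL6) and 0.03 ± 0.04 (WDR3). Set against D2000, D6 had 48 factors higher and 0 lower (21.7% of all genes higher and 18.8% lower, and 53.7% of the 6700 higher, with a median of 0.94). SAMD9 itself was at 948 CPM in D6 and 961 CPM in D2000. RRP12 had 119.5 and 121 CPM in D6, against 47.9 and 46.0 CPM in D2000 (1.36 ± 0.06), and LTV1 had 93.7 and 94.0 CPM in D6, against 38.1 and 36.2 CPM in D2000 (1.34 ± 0.05). NOL6 (1.34 ± 0.05), RRP9 (1.33 ± 0.06) and UTP20 (1.32 ± 0.04) came next, and IMP3 did not differ beyond its error (-0.005 ± 0.07). With library totals 46 were higher and 1, IMP3, was lower (-0.20, edgeR Benjamini-Hochberg adjusted p = 0.0162), and 31.2% of all calls were higher, against 53.6% with TMM. D6 and D2000 are set against the same untreated libraries in the contrasts above.

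**Figure D4:**
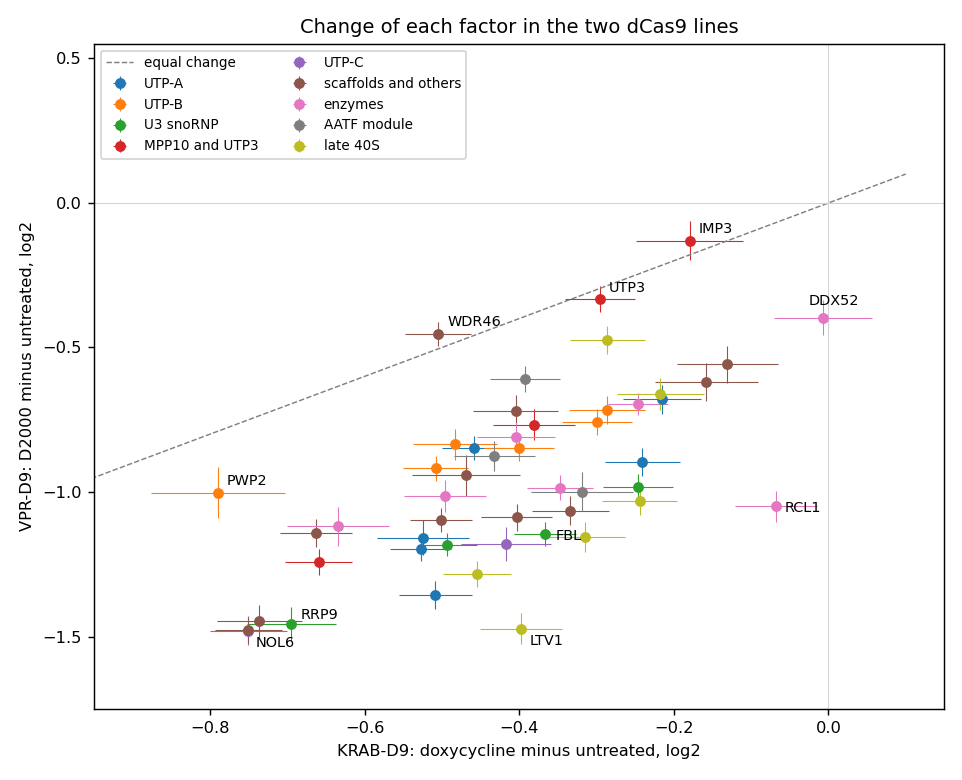
Log2 fold change of each factor in D2000 against untreated VPR-D9 (vertical axis) and with doxycycline in KRAB-D9 (horizontal axis), ± standard errors, coloured by role. Points below the dashed line of equal change fell more in D2000; LTV1, RCL1 and FBL lie far below it, while IMP3, UTP3 and WDR46 lie near it.

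The fall in D2000 was set against the fall with doxycycline in KRAB-D9. For 45 of 49 factors it was larger in D2000 and for 0 smaller (test of the difference, 19.1% of all genes called in that direction and 12.2% in the other, 49.3% of the 6700 in that direction), with a median difference of -0.48 on the log2 scale. LTV1 fell by 1.47 in D2000 and by 0.40 in KRAB-D9 (difference -1.07 ± 0.08, edgeR Benjamini-Hochberg adjusted p = 1.26e-14). FBL (-0.78 ± 0.06) and TSR1 (-0.83 ± 0.06) had the next smallest adjusted p. PWP2 (-0.21 ± 0.12), UTP3 (-0.04 ± 0.06), IMP3 (0.05 ± 0.10) and WDR46 (0.05 ± 0.06) were not called. With library totals the median of all genes moved by 0.19, 40 factors were called in that direction, UTP3 (0.16) and WDR46 (0.25) were called in the other, and 63.2% of all calls were positive, against 38.9% with TMM. Across the 49 factors the changes in the 2 lines, which share no library, had Pearson's r = 0.65 and Spearman's rho = 0.64 (n = 49 genes; r = 0.39 over 9204 genes of at least 10 CPM). All 44 factors that were lower in KRAB-D9 were among the 48 lower in D2000. With 48 of 49 lower in D2000 this overlap was nearly fixed in advance, so it is no sign of agreement between the lines. The D6 effect set against that of KRAB-D9 gave the opposite sign. For 41 factors it was less negative in D6 (7.87% of all genes called in that direction and 7.63% in the other, 16.6% of the 6700 in that direction, median difference 0.32), and for 0 more negative. WDR46 (0.64 ± 0.06), UTP20 (0.60 ± 0.06) and IMP4 (0.57 ± 0.06) had the smallest adjusted p. The lines differ in the fusion they carry, the dose of D6 was not given and the times may differ, so the fusion cannot be told apart from these.

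With IFN alone few factors were called. In parental cells 1 factor was called lower and 0 higher, against 1.31% and 3.03% of all genes. UTP20 had 159 and 152 CPM with IFN, against 182 and 179.9 CPM without (-0.22 ± 0.04, edgeR Benjamini-Hochberg adjusted p = 0.000569). This call was lost without replicate 2 of the IFN group (edgeR Benjamini-Hochberg adjusted p = 0.0594). The median change of the 49 was -0.05, and the largest change in either direction among the rest was that of UTP15 (-0.19 ± 0.06). In KRAB-D9 cells IFN lowered FBL (705 and 754 CPM with IFN, against 828 and 817 CPM without, -0.17 ± 0.04, edgeR Benjamini-Hochberg adjusted p = 0.00398) and raised UTP11 (206 and 179 CPM with IFN, against 166 and 174 CPM without, 0.18 ± 0.05), against 2.42% of all genes called lower and 3.98% higher. Without replicate 1 of the IFN group 0 factors were called, and without replicate 2 there were 9 (4 lower, 5 higher, beside 9.18% of all genes). With doxycycline present IFN raised EMG1 (39.3 and 38.9 CPM with both treatments, against 31.8 and 33.6 CPM with doxycycline, 0.26 ± 0.07) and PDCD11 (0.14 ± 0.04), against 3.12% of all genes called higher and 1.77% lower, and 6.84% of the 6700 higher. Both calls were lost without replicate 1 of either group. EMG1 was also lost without replicate 2 of both treatments, and PDCD11 without replicate 2 of doxycycline. The IFN effect was not called different between KRAB-D9 and parental cells for any factor (0 of 49, edgeR Benjamini-Hochberg adjusted p, 0.303% of all genes called). At an unadjusted p under 0.05 there were 14, DESeq2 also called 0, and the differences ran from -0.24 to 0.26 (median 0.06, median standard error 0.07). The share of all genes at that unadjusted cut was not counted, so whether 14 is an excess is not known. Without replicate 2 of KRAB-D9 with IFN 7 were called, beside 4.13% of all genes, and 0 without replicate 1.

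The untreated lines already differed in these genes. In untreated VPR-D9 cells 37 factors were lower than in untreated parental cells and 0 higher, against 18.2% and 18.5% of all genes (35.1% lower among the 6700), with a median of -0.24. UTP15 had 53.7 and 56.3 CPM in VPR-D9, against 71.9 and 78.6 CPM in parental cells (-0.45 ± 0.06, edgeR Benjamini-Hochberg adjusted p = 3.17e-08). RIOK2 had 49.4 and 50.4 CPM in VPR-D9, against 69.6 and 65.7 CPM in parental cells (-0.44 ± 0.06), and FBL had 519 and 501 CPM in VPR-D9, against 670.2 and 684 CPM in parental cells (-0.41 ± 0.04). NOB1 (-0.41 ± 0.05) and WDR75 (-0.41 ± 0.05) were the other large falls. The 6 UTP-A, 6 UTP-B, 4 U3 snoRNP, 3 AATF-module and 6 late factors were all lower, while 4 of 11 scaffolds were. SAMD9 averaged 60.6 CPM in untreated VPR-D9 cells and 9.18 CPM in parental cells. In untreated KRAB-D9 cells the factors split: 16 were lower and 9 higher than in parental cells, against 14.3% and 14.2% of all genes, with a median of -0.01. Among the 6700 genes 24.7% were lower and 23.6% higher, so the share of factors higher (18.4%) was under the background. FBL (828 and 817 CPM in KRAB-D9, against 670.2 and 684 CPM in parental cells, 0.28 ± 0.04) and UTP14A (157 and 154 CPM in KRAB-D9, against 129.6 and 127 CPM in parental cells, 0.28 ± 0.05) were highest, followed by PDCD11 (0.20 ± 0.04), NOL6 (0.20 ± 0.05) and TBL3 (0.16 ± 0.05). RCL1, BYSL, IMP4 and UTP3 rose by 0.12 to 0.15, and these 4 calls and that of TBL3 were lost in all fits with a compared library left out.

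The 5 largest falls in untreated KRAB-D9 cells lay on 1 chromosome. UTP18 (ENSG00000011260.14, chr17:51260546-51297936, GRCh38) had 86.8 and 82.6 CPM in untreated KRAB-D9, against 143 and 137 CPM in parental cells (-0.73 ± 0.05, edgeR Benjamini-Hochberg adjusted p = 2.49e-15). NOL11 (ENSG00000130935.10, chr17:67717931-67744531) had 126 and 123 CPM in KRAB-D9, against 201 and 209 CPM in parental cells (-0.71 ± 0.05). DDX52 (ENSG00000278053.5, chr17:37609739-37643446) had 61.1 and 57.9 CPM in KRAB-D9, against 88.0 and 92.3 CPM in parental cells (-0.60 ± 0.06). Libraries did not overlap for any of these. UTP6 (ENSG00000108651.10, chr17:31860904-31901708) had 128 and 131.4 CPM in KRAB-D9, against 184 and 183 CPM in parental cells (-0.50 ± 0.04), and AATF (ENSG00000275700.6, chr17:36948925-37056871) had 151 and 154 CPM in KRAB-D9, against 199 and 193 CPM in parental cells (-0.36 ± 0.04). These are all the factors on chromosome 17 beyond 25 Mb, a boundary chosen after the values were seen. Other genes there fell too: of 407 with a mean of at least 10 CPM, 369 (90.7%) were called lower, with a median of -0.50. Of 8613 such genes on other chromosomes 20.5% were lower (median 0.02), and the 135 before 25 Mb on chromosome 17 had a median of 0.06. The medians of the other chromosomes ran from -0.13 to 0.08. TSR1 (chr17:2322396-2336657), the remaining chromosome 17 factor, stood at 0.04 ± 0.04, and the 44 factors outside the region had a median of -0.0034 (11 lower, 9 higher). That is 25% lower, near the 20.5% of genes on other chromosomes. In untreated VPR-D9 cells the other 407 genes of the region had a median of 0.04 against parental cells, and the 5 factors had -0.23. With doxycycline in KRAB-D9, which is set against untreated KRAB-D9 cells, the 5 had a median of -0.29 and the other 407 one of -0.03. Of the 5, DDX52 was not called lower with doxycycline in KRAB-D9 and the other 4 were.

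**Figure D5:**
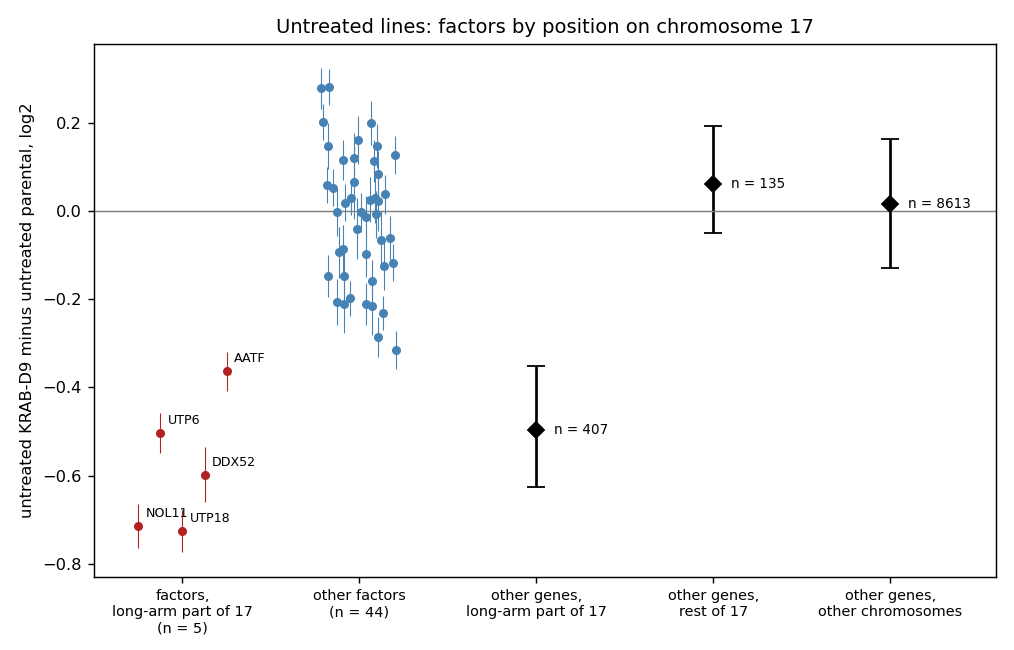
Log2 difference between untreated KRAB-D9 and untreated parental cells for the 5 factors on the long-arm part of chromosome 17 and the 44 others (points, bars are standard errors), and for other genes by place (diamonds are medians, bars the quartiles). The 5 factors lie between -0.73 and -0.36, around the -0.50 median of the 407 other genes of that region, and the other factors scatter around 0.

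Other ribosome genes were counted from lists for comparison. With doxycycline in KRAB-D9, where 12.7% of all genes and 30.2% of the 6700 were lower, 22 of 30 further small-subunit factors were lower and 1 higher (median -0.21), as were 52 and 1 of 61 factors of the 60S subunit (median -0.34) and 9 and 0 of 15 parts of the RNA polymerase I machinery (median -0.31). DDX21, a nucleolar helicase, changed by -0.50 ± 0.04 and POLR1G, a polymerase I subunit, by -0.97 ± 0.09. The 32 mRNAs of 40S ribosomal proteins, the parts that these factors assemble, had a median of 0.03, and the 4 lower (12.5%) and 2 higher (6.25%) among them were no larger a share than among all genes. In D2000, where 24.2% of all genes and 58.5% of the 6700 were lower, 27 of 30 further small-subunit factors (median -0.61), 58 of 61 60S factors (median -0.90), 14 of 15 polymerase I genes (median -0.59) and 30 of 32 40S ribosomal protein mRNAs (median -0.34) were lower. MRTO4, a 60S factor, changed by -1.54 ± 0.04. In D6 0 of 30 further small-subunit factors, 7 of 61 60S factors, 1 of 15 polymerase I genes and 2 of 32 ribosomal protein mRNAs were lower, and 0 were higher in these lists. Among all genes 3.41% were lower there, and 9.81% of the 6700, so these shares are near the background. IFN given on top of doxycycline in KRAB-D9 lowered 17 of 32 40S ribosomal protein mRNAs (median -0.18), against 1.77% of all genes and 4.37% of the 6700, and the 49 factors had a median of 0.04 there. In untreated KRAB-D9 cells 19 of the 32 were higher than in parental cells (median 0.16), against 14.2% of all genes and 23.6% of the 6700.

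Promoters of the factors were searched because the mRNAs moved together. RefSeq (GRCh38.p14) held a promoter entry for 41 of the 49, each reaching from 250 bases before the start to 50 after it. The letters CACGTG, a palindrome known as the canonical E-box and read by MYC and other basic helix-loop-helix proteins, were in the 250 upstream bases of 7 of 41 factors (17.1%), against 6.49% of 27305 promoters. In the whole window they were in 17 of 41 (41.5%), against 7.43%. The 27305 promoters, used for every motif searched, were not limited to genes expressed in these cells, and no such share was counted. UTP20, UTP14A and IMP4 have the largest falls with doxycycline in KRAB-D9 among those with the upstream match, and their promoters are shown with the match in capitals, cut where the gene's span in the deposited annotation begins. UTP4, the next by size, has its window inside that span and is shown by its short match alone. 
UTP20 (chr12:101279855-101280104, plus strand): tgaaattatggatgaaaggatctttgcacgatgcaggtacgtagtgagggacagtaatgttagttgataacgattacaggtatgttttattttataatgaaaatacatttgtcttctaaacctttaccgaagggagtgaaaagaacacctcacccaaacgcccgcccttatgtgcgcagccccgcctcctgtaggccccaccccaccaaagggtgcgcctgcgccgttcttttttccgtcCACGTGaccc
UTP14A (chrX:129905914-129906120, plus strand): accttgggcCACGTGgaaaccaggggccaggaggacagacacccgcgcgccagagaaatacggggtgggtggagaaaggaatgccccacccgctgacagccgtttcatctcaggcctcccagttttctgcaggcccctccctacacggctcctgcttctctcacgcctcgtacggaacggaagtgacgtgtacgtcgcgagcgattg
IMP4 (chr2:130342647-130342876, plus strand): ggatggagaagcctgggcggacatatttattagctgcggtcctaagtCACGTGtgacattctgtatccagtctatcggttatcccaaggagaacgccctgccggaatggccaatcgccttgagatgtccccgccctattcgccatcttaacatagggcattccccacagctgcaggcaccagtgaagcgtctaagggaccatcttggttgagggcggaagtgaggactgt

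The match lay 10 bases before the start in UTP20, 241 before it in UTP14A and 203 before it in IMP4, counted to its first base. In UTP4, NAT10, UTP18 and AATF it also lay before the start, and IMP4 and UTP18 held a further match after the start. In the other factors with a match it lay at or just after the start, a window added after the upstream counts were seen. The short stretches of PWP2, NOL6, RRP9, WDR43, FBL and UTP4 (GRCh38.p14, match in capitals) are printed to show its place: after the start in PWP2, NOL6, WDR43 and FBL, across it in RRP9 and before it in UTP4. Position 1 is the first transcribed base and -1 the base before it.
PWP2 (chr21:44107390-44107415, plus strand, match from position 2): agctgcggcaCACGTGcgacggccgt
NOL6 (chr9:33473896-33473921, minus strand, match from position 14): catttccgccCACGTGggaagctatg
RRP9 (chr3:51941894-51941919, minus strand, match from position -5): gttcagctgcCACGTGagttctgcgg
WDR43 (chr2:28894660-28894685, plus strand, match from position 4): cacggacgaaCACGTGgctgcagcgg
FBL (chr19:39846358-39846383, minus strand, match from position 7): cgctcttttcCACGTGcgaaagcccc
UTP4 (chr16:69132623-69132648, plus strand, match from position -16): agcgcgcgcgCACGTGgggccggggc

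The size of the fall was set beside the match. With doxycycline in KRAB-D9 the 17 with it had a median of -0.46 and the 24 without it one of -0.40, and in D2000 the medians were -1.14 with it and -0.91 without it. These differences were not tested. RCL1, with a match at base 5, was not called in KRAB-D9. A CGCG-type palindrome of 10 letters was in the 250 upstream bases of 2 factors, NOL11 and NOP14 (4.88%, against 0.41% of promoters), and an NRF1-type palindrome of 10 letters in those of DDX10, NOB1 and UTP18 (7.32%, against 1.13%). A YY1-type motif, searched on both strands, was in 0 upstream windows and in 1 whole window, that of NGDN (2.44%, against 1.28%). A match is a run of letters and not a measured site.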

How the data were processed

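The deposited table held raw counts of reads per gene for 18 libraries and 41285 genes. Per the submitters' processing notes, cutadapt 2.10, FastQC 0.11.9, STAR 2.7.8a and featureCounts 2.0.2 were used with GRCh38.p13. The annotation release, the strand setting and how multimapping reads were treated were not given in the sources used here. Without a stated strand setting, overlapping and antisense genes are uncertain: 30 of the 49 factors overlap another gene row. For 6 of them (UTP4, UTP15, HEATR1, IMP3, UTP23 and EMG1) that row held at least 10% as many counts.

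From the counts, edgeR 4.0.16 (R 4.3.3, limma 3.58.1) fitted 9 group means with TMM scaling and filterByExpr, which kept 22143 genes. Contrasts were tested with the robust quasi-likelihood test (9 residual degrees of freedom, common biological coefficient of variation 0.0569), adjusted by Benjamini-Hochberg over all genes tested and called at 0.05. A standard error is the size of the log2 fold change divided by the root of F. In simulated data of the KRAB-D9 doxycycline contrast (20959 genes), the test recovered 91.9% of 37 genes over 20 CPM changed by 0.4, and 100% of 29 changed by 1, on the log2 scale. At all levels it recovered 42.4% of 99 genes changed by 0.4 and 47.3% of 91 changed by 1, and it made 9 false calls among genes left unchanged.

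The factors and lists were chosen with earlier results of these data known. Named with values were, per contrast, the 5 largest falls and rises called, the most abundant factor of each role, factors called against the majority and, for differences of effects, the 3 with the smallest adjusted p. The 2 largest changes of each role in KRAB-D9 with doxycycline have a value for each library. Other factors named were chosen after their values were seen. Alternatives were DESeq2 1.42.0 (its size factors and its Wald test), library totals, no filter, a filter of at least 10 CPM in 2 libraries, only the compared groups, the replicate number as a block, and leaving out each library. Promoter sequences are from RefSeq, and UTP23, NOL10, DDX49, MPHOSPH10, RRP12, DCAF13, NOP58 and DDX52 were not searched.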

Additional observations from a re-analysis of the deposited data

Results flagged for a closer look

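The doxycycline effect on the factors differed between the lines in 2 tests of the difference itself. In D2000 set against KRAB-D9 45 factors fell more in D2000, and the smallest adjusted p (edgeR quasi-likelihood test, Benjamini-Hochberg) were those of LTV1 at -1.07, FBL at -0.78 and TSR1 at -0.83 on the log2 scale. In D6 set against KRAB-D9 41 factors had a less negative change in D6, led in the same way by WDR46 at 0.64, UTP20 at 0.60 and IMP4 at 0.57. Both tests use the same untreated VPR-D9 libraries and the same KRAB-D9 libraries, so they are not independent.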

How the results depend on the processing

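Counts of factors called stayed within 1.5 times their value, under the 7 settings that keep all libraries, for doxycycline in KRAB-D9 (44 without IFN, 45 with it, 45 with both treatments against none), D2000, D6 against D2000, both differences of effects between VPR-D9 and KRAB-D9, and both untreated lines. The small counts moved. For D6 against untreated (6), library totals gave 3 and no low-count filter 2. For parental IFN (1), the filter of 10 CPM gave 2, DESeq2 2 and a fit of the compared groups only 3. For KRAB-D9 IFN (2), library totals gave 1, the replicate block 1 and the compared groups only 0. For IFN on top of doxycycline (2), no filter gave 1 and DESeq2 4. Leaving out each library of a contrast gave 43 to 45 factors for KRAB-D9 doxycycline, 43 to 46 with IFN present, 48 to 49 for D2000, 1 to 3 for D6, 48 in each case for D6 against D2000, 0 to 2 for parental IFN, 0 to 9 for KRAB-D9 IFN, 0 to 1 for IFN on top of doxycycline, and 41 to 44 for both treatments. For differences of effects the ranges were 0 to 5 (doxycycline with IFN minus without), 0 to 7 (IFN in KRAB-D9 minus parental), 43 to 45 (D2000) and 31 to 38 (D6). For untreated lines they were 31 to 34 (VPR-D9) and 15 to 18 (KRAB-D9, 15 without replicate 2 of the parental cells). The cause of these moves was not tested.

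A lone library left in a group is assumed to vary like the other groups. Of 1135 recomputed values for 101 named results, 1059 kept direction and side of the threshold, 71 lost the call and 3 gained it. The 2 that changed sign were of MPHOSPH10 in D6 against untreated, which was not called and ranged from -0.0169 to 0.0149 with a library left out. The replicate numbers showed no general pairing of the libraries (correlation of replicate differences -0.18 to 0.27 between groups). The highest value was that between parental and KRAB-D9 cells with IFN, and whether some groups shared a day or batch was not tested. As a block, the replicate number lost the calls of UTP11 with IFN in KRAB-D9 (edgeR Benjamini-Hochberg adjusted p = 0.0502) and of UTP3 in untreated KRAB-D9 (edgeR Benjamini-Hochberg adjusted p = 0.0534), and no other call of a named factor.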

Other observations

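The order of the 9 groups was not the same for every factor. D2000 was lowest for 46 of the 49, IMP3 was lowest in D6, UTP18 in KRAB-D9 with doxycycline and DDX52 in KRAB-D9 with both treatments. The share of all genes that were lowest in D2000 was not counted. Across the 49 factors the change with doxycycline in KRAB-D9 had a Spearman correlation of -0.17 with mean level and of -0.16 with gene length, given as a description of 49 genes that share libraries.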
